A study of Mus musculus with 6 samples.

Results

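The genes described here are 30 genes of B-cell receptor signalling and of the B-cell surface, each followed through the 100 kb bin of the genome that holds its start in the mouse mm10 annotation. Each of the 30 genes fell in a bin of its own, and these 30 bins were among 23651 autosomal bins tested, out of 26731 bins in the deposited list. The genes were chosen for their role and not for a measured value, though with earlier results of these data known. The data are in situ Hi-C, in which ends of cut DNA are ligated to their neighbours inside the nucleus and read as pairs, so that a count is the number of read pairs joining 2 bins. All cells were B-cell progenitors obtained from lineage-negative mouse bone marrow (strain given as C56BL/6) that spent 8 days in culture over OP9 stroma, supplied with SCF, IL7 and FL, before selection for B220.

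There were 3 groups of 2 libraries. The Erg KO group carried Rag1CreT/+;Erg fl/fl, in which a Cre recombinase driven from Rag1 removes the floxed gene Erg, an ETS family transcription factor, from lymphoid progenitors onwards. The first control group, called the CreT control here, carried Rag1CreT/+ and therefore the recombinase without floxed alleles. The second, the Erg fl/fl control, was labelled Rag1Cre+/+;Erg fl/fl and carried the floxed alleles. The study uses this genotype as the control in which Erg is intact, so +/+ is read here as no recombinase. Replicate 2 of Erg KO and replicate 2 of the Erg fl/fl control came from males and the other 4 libraries from females. The study places the Erg KO cells at an earlier stage of B-cell development than the control cells, so genotype and stage cannot be told apart in these libraries. Hi-C holds no RNA, and neither the cell type nor the deletion in Erg, which is far shorter than a bin, could be checked against marker genes.

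The B-cell receptor is an immunoglobulin held at the membrane by the signalling chains Cd79a and Cd79b. Its engagement lets Src family kinases and Syk phosphorylate adaptors, which assemble the enzymes that release calcium and lipid messengers and activate protein kinase C and NF-kB. Co-receptors raise or dampen this signal, and before light chains exist a pre-B-cell receptor built with surrogate light chains uses the same machinery.

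The libraries held between 29014581 read pairs, in the Erg fl/fl control replicate 2, and 68085468, in the CreT control replicate 2. Pairs joining different chromosomes made up 32.3% and 34.6% of the pairs in the Erg KO libraries, against 21.6% to 26.8% in the 4 control libraries. Of the pairs within a chromosome, 21.5% and 21.2% spanned 200 kb to 2 Mb in Erg KO, against 22.9% to 29.8% in the controls, the highest value being that of Erg fl/fl control replicate 2. The part that this difference in library composition plays in the values below was not tested.

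The promoter sequences of 4 members are shown because these genes fell in Erg KO on both of the first measures below, and they stand for a signalling chain, a surrogate light chain relative, a survival receptor and an inhibitory co-receptor. Each run is the 250 bases before the RefSeq start in GRCm38.p6, written 5' to 3' on the strand of the gene, with motif matches in capitals. They lie at chr7:24897247-24897496 on the plus strand for Cd79a, at chr10:75948050-75948299 on the plus strand for Vpreb3, at chr15:82224381-82224630 on the minus strand for Tnfrsf13c and at chr7:30879029-30879278 on the minus strand for Cd22.
Cd79a: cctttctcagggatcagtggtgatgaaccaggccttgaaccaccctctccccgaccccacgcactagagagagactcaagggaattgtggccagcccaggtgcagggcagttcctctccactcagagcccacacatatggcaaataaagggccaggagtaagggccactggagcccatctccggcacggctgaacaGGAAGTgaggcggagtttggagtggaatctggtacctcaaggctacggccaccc
Vpreb3: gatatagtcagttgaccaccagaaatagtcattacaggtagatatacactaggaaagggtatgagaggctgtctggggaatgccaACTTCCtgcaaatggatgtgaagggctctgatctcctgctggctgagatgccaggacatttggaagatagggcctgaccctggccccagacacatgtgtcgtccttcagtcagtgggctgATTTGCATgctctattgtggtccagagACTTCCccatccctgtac
Tnfrsf13c: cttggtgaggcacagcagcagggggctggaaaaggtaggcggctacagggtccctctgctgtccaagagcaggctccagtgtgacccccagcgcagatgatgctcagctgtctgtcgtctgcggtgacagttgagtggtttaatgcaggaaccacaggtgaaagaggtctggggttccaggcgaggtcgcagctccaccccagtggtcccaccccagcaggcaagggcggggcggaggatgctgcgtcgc
Cd22: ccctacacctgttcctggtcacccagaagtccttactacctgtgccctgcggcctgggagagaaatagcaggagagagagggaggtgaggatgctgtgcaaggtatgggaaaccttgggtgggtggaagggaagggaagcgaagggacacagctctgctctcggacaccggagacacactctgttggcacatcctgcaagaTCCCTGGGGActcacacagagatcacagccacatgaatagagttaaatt

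3 motifs were searched on both strands. The first was GGAAGT, a core bound by ETS factors, whose reverse complement is ACTTCC. The second was the octamer ATGCAAAT, bound by Oct factors, and the third was the palindrome bound by Ebf1, TCCC and GGGA with any 2 bases between, which reads the same on both strands. No letters are shared between the matches in capitals. RefSeq promoters were matched for 22 of the 30 members, giving 29 promoters. GGAAGT was present in 15 of the 29, or 51.7%, belonging to 13 members, against 19.7% of all 32851 promoters of the same length. The octamer was found in 10.3% of member promoters, those of Blnk, Prkcb and Vpreb3, against 1.6% of all. The Ebf1 palindrome was found in 3.45%, that of Cd22 alone, against 0.779% of all. These are descriptions of letters in a window, and a bin is far longer than such a window.

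The member bins differed from the genome at large before any comparison between groups. Their median GC content was 47.0%, from 37.0% to 50.8%, against 41.5% over all tested bins, and 26 of the 30 lay above that value. A member bin held a median of 3 gene starts, against 0 over all bins, and its total contacts were a median of 1.34 times those of the median bin. For 4 members the bin held 10% or less of the gene body, namely Plcg2 with 1.23%, Prkcb with 3.18%, Pik3cd with 4.65% and Bank1 with 9.68%, so their values describe the surroundings of the start. Reference bins were therefore drawn for each member, once by like GC content and gene count and once by like total contacts and gene count, with a median of 591 and 809 bins per member.

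The first measure was the local contact count of a bin, that is the read pairs joining it to bins 200 kb to 2 Mb away, scaled between libraries. Local contacts of the members were lower in Erg KO than in the controls. By edgeR's quasi-likelihood test with Benjamini-Hochberg adjustment over all 23651 bins, at an adjusted p under 0.05, 23 of the 30 members fell, 1 rose and 6 did not pass. Over all bins 33.0% fell and 33.9% rose. The members' median log2 change was -0.32, while the median over all bins was 0.01. In 22 members both Erg KO libraries lay below every control library and in 3 both lay above. Over all bins these shares were 33.4% and 34.8%. In the controls the median member held 1022 scaled local contacts and the median bin 695, and in Erg KO these medians were 899 and 688.

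**Figure D1:**
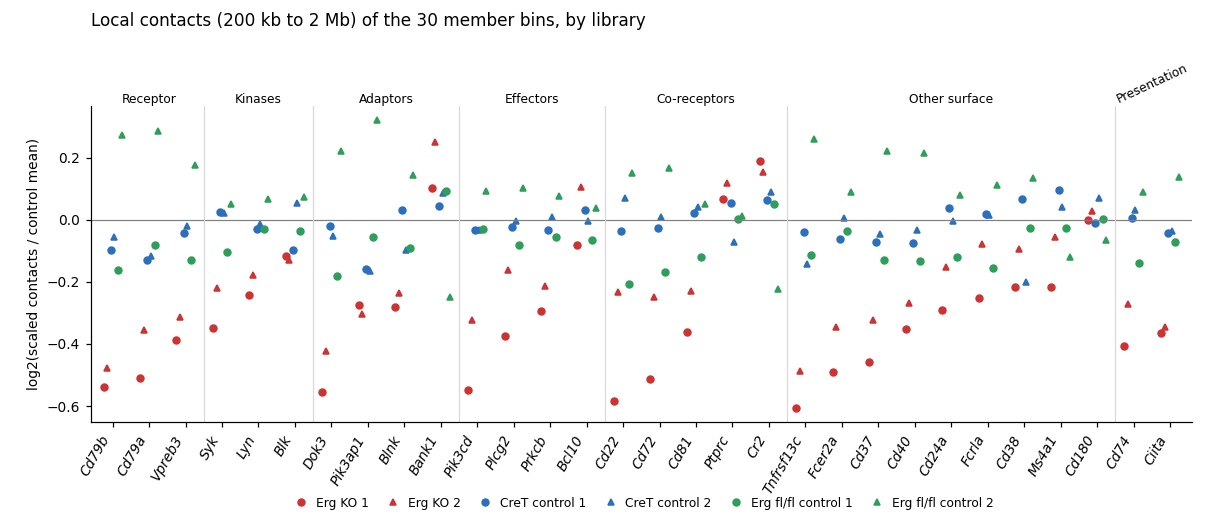
Local contacts (200 kb to 2 Mb) of the bins of the 30 genes, plotted as the log2 of each library's scaled contacts over the mean of the controls, with genes grouped by role along the x axis, 1 point for each library, colours for the genotype groups and shapes for the replicates. Erg KO points lie under all control points in 22 genes and over them in Bank1, Cr2 and Ptprc. With offsets for GC content the change of Bank1, Cr2 and Ptprc is negative and that of Cd40, Cd72, Cd74, Cd81, Cd24a, Fcrla, Plcg2, Blk and Bcl10 is positive.

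The signalling chains and the surrogate light chain relative all fell, by a median of -0.49. Cd79a, the Ig-alpha chain that carries a signalling motif, held 603 and 671 scaled local contacts in Erg KO. The CreT control held 785 and 791 and the Erg fl/fl control 811 and 1046. The log2 change of Cd79a was -0.49 ± 0.071 (SE, adjusted p = 4.80e-06). Cd79b, its partner Ig-beta, held 882 and 921 in Erg KO, 1199 and 1235 in the CreT control and 1145 and 1550 in the Erg fl/fl control, a change of -0.56 ± 0.07 (adjusted p = 7.88e-07). Vpreb3, which associates with heavy chains in the secretory pathway of early B cells, changed by -0.39 ± 0.0635 (adjusted p = 1.59e-05), from 1131 to 1397 in the controls to 946 and 996 in Erg KO. In all 3 genes the higher Erg KO library was still under the lowest control, and the highest value was that of Erg fl/fl control replicate 2. With offsets for GC content, described further below, their changes were -0.14, -0.07 and -0.03, and none passed.

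Among the kinases, Syk and Lyn fell and Blk did not pass the test. Syk, which docks on the phosphorylated signalling chains, held 1021 and 1118 in Erg KO, 1325 and 1322 in the CreT control and 1210 and 1348 in the Erg fl/fl control, a change of -0.32 ± 0.0582 (adjusted p = 6.15e-05). Lyn, a Src family kinase that both starts and restrains the signal, held 392 and 410 in Erg KO against 456 to 487 in the controls, a change of -0.23 ± 0.0916 (adjusted p = 0.0305). The ranges did not overlap for either gene, and with offsets for GC content Syk at -0.06 and Lyn at -0.19 did not pass. The call of Lyn was also lost without Erg KO replicate 1, at -0.26, without either CreT control replicate, at -0.23, with scaling by library totals, in DESeq2, without the sex term and with a replicate block. Blk, a Src family kinase of B cells, held 924 and 916 in Erg KO and 936 to 1053 in the controls, with a change of -0.13 ± 0.067 (adjusted p = 0.0857) that became 0.22 with offsets for GC content. Its Erg KO values also lay below every control, by a narrow margin.

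The adaptors differed in direction. Dok3, which damps calcium release, changed most among them, by -0.55 ± 0.0674 (adjusted p = 6.58e-07), with 796 and 873 contacts in Erg KO, 1154 and 1130 in the CreT control and 1034 and 1366 in the Erg fl/fl control. Blnk, the scaffold that brings Syk to its targets, held 755 and 779 in Erg KO against 859 to 1014 in the controls, a change of -0.29 ± 0.0696 (adjusted p = 0.000919). Pik3ap1, which couples the receptor to phosphoinositide 3-kinase, held 712 and 698 in Erg KO, 772 and 768 in the CreT control and 829 and 1076 in the Erg fl/fl control, a change of -0.32 ± 0.0764 (adjusted p = 0.000937). None of these 3 had an Erg KO value as high as any control. With offsets for GC content Dok3 at -0.12 and Pik3ap1 at -0.04 did not pass, and Blnk at -0.19 did. The change of Pik3ap1 was -0.58 without Erg KO replicate 1, and -0.17, which did not pass, without Erg fl/fl control replicate 2. Bank1, a scaffold that binds Lyn and calcium channels, was the only member that rose, by 0.20 ± 0.077 (adjusted p = 0.0275), with 1042 and 1155 in Erg KO, 1000 and 1031 in the CreT control and 1035 and 816 in the Erg fl/fl control, and its change was -0.05 with offsets for GC content. The difference for Bank1 was small next to the gap between the replicates of the Erg fl/fl control. Its call was lost at 0.02 without either of the male libraries, replicate 2 of Erg KO and replicate 2 of the Erg fl/fl control. The sex term was kept, so these fits are in effect the same and rest on the female libraries. The call was also lost, at 0.19, without CreT control replicate 1. Without Erg KO replicate 1 the change was 0.51, with Erg KO then given by its male library alone. Nor did Bank1 pass in DESeq2, without the sex term, with a replicate block or over contacts from 200 kb to 1 Mb.

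Among the effectors, Pik3cd, Plcg2 and Prkcb fell. Pik3cd, the lymphocyte catalytic subunit of phosphoinositide 3-kinase, held 951 and 1111 in Erg KO, 1357 in both CreT control libraries and 1363 and 1483 in the Erg fl/fl control, a change of -0.48 ± 0.0587 (adjusted p = 7.24e-07). Plcg2, the phospholipase that makes the calcium messenger, changed by -0.32 ± 0.056 (adjusted p = 4.37e-05), with 1104 and 1280 in Erg KO against 1353 to 1537 in the controls, and by 0.17 with offsets for GC content. Prkcb, the protein kinase C that leads to NF-kB, changed by -0.28 ± 0.0578 (adjusted p = 0.000239), with 1084 and 1147 against 1277 to 1401. None of these 3 overlapped between Erg KO and the controls. Pik3cd and Prkcb both changed by -0.02 with offsets for GC content and did not pass. Bcl10, which joins Malt1 downstream of protein kinase C, held 783 and 892 in Erg KO and 792 to 850 in the controls, a change of -0.02 ± 0.0656 (adjusted p = 0.752), and of 0.24 with offsets for GC content.

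Of the co-receptors and regulators of the signal, Cd22, Cd72 and Cd81 fell, and Cr2 and Ptprc did not pass. Cd22, an inhibitory receptor for sialic acids, held 771 and 983 in Erg KO, 1126 and 1211 in the CreT control and 1000 and 1283 in the Erg fl/fl control, a change of -0.49 ± 0.0641 (adjusted p = 1.38e-06). Its Erg KO replicate 2 lay only just under the lowest control. Cd72, also inhibitory, changed by -0.45 ± 0.068 (adjusted p = 7.08e-06) and Cd81, a tetraspanin of the B-cell co-receptor, by -0.33 ± 0.0617 (adjusted p = 7.66e-05). With offsets for GC content the changes of Cd22, Cd72 and Cd81 were -0.09, 0.01 and 0.16, and of these only that of Cd81 passed. Cr2, the complement receptor that joins Cd81, held 425 and 415 in Erg KO, 389 and 396 in the CreT control and 386 and 320 in the Erg fl/fl control, a difference of 0.21 ± 0.0979 (adjusted p = 0.0638) that was -0.24 with offsets for GC content. Cr2 passed as higher in Erg KO with scaling by library totals, at 0.26, over contacts from 200 kb to 1 Mb, at 0.25, without Erg KO replicate 1, at 0.36, and without Erg fl/fl control replicate 1, at 0.24. Ptprc encodes Cd45, the phosphatase that primes Src family kinases and whose B220 form was used to select the cells. It held 1002 and 1038 in Erg KO and 911 to 992 in the controls, a difference of 0.08 ± 0.0643 (adjusted p = 0.251), and of -0.21 with offsets for GC content. For Cr2 and Ptprc the lower Erg KO library still exceeded the highest control.

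The other surface molecules included the member with the lowest change. Tnfrsf13c, the BAFF receptor through which B cells receive survival signals, held 877 and 952 in Erg KO, 1298 and 1211 in the CreT control and 1233 and 1599 in the Erg fl/fl control, a change of -0.60 ± 0.0659 (adjusted p = 1.98e-07). Both Erg KO libraries stood well below the lowest control. Fcer2a, the low-affinity IgE receptor, changed by -0.45 ± 0.0717 (adjusted p = 1.41e-05), with 563 and 622 in Erg KO against 757 to 841 in the controls. Cd37, a tetraspanin of B cells, also changed by -0.45, with 618 and 678 against 775 to 989. Cd40, the receptor for T-cell help, changed by -0.36 ± 0.0631 (adjusted p = 4.32e-05), and by 0.02 with offsets for GC content. Cd24a, a glycolipid-anchored marker of early B cells, had the highest levels, 1372 and 1510 in Erg KO and 1545 to 1773 in the controls, a change of -0.26 ± 0.0531 (adjusted p = 0.000187) and of 0.04 with offsets for GC content. In these 5 genes the ranges of Erg KO and controls did not overlap. None of them passed with offsets for GC content, Tnfrsf13c being at -0.08, Fcer2a at -0.03 and Cd37 at -0.003. Without the sex term Cd24a did not pass, at -0.22.

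Fcrla, an intracellular relative of the Fc receptors, fell by 0.22 ± 0.0641 (adjusted p = 0.00502) on the log2 scale, but its libraries overlapped, with 814 and 918 in Erg KO and 870 to 1048 in the controls, and with offsets for GC content it changed by 0.05. Cd38, an enzyme of the cell surface that consumes NAD, changed by -0.19 ± 0.0779 (adjusted p = 0.0372), and one CreT control library, at 688, lay between the Erg KO values of 680 and 740. The calls for these genes therefore rest on the fit and not on separate ranges, and that of Cd38 was lost without Erg KO replicate 1, at -0.22, or CreT control replicate 1, at -0.12. Neither gene passed with offsets for GC content, without the sex term or with a replicate block, and Cd38, at -0.04 with those offsets, also did not pass with scaling by library totals or in DESeq2. Ms4a1, which encodes Cd20, had 898 and 1004 in Erg KO and 961 to 1115 in the controls, with a change of -0.14 ± 0.0673 (adjusted p = 0.0622). Cd180, a Toll-like receptor relative, had 1247 and 1273 in Erg KO and 1192 to 1310 in the controls, with a difference of 0.02 ± 0.0585 (adjusted p = 0.791). Neither Ms4a1 nor Cd180 passed the test, though Ms4a1 passed at -0.19 over contacts from 200 kb to 1 Mb. Ms4a1 also passed, at -0.24, without Erg KO replicate 2 or without replicate 2 of the Erg fl/fl control, which is in effect the same fit. Both genes of antigen presentation fell, Ciita, the master activator of MHC class II, by 0.38 ± 0.0668 (adjusted p = 3.97e-05) and Cd74, the invariant chain, by 0.38 ± 0.0626 (adjusted p = 1.90e-05) on the log2 scale. Ciita at -0.06 and Cd74 at 0.09 did not pass with offsets for GC content.

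The 2 controls were also compared with each other. No member and no bin of the 23651 passed between them in edgeR (0.00%), with 2 members and 2081 bins at an unadjusted p under 0.05, and none passed in DESeq2, with 1 member and 702 bins at that level. The median member change of Erg KO was -0.36 against the CreT control alone and -0.28 against the Erg fl/fl control alone, comparisons that share the Erg KO libraries. Erg fl/fl control replicate 2 was the highest control in 25 of the 30 members and Erg KO replicate 2 the higher of the Erg KO pair in 27. Both are the male libraries, and the fit had a term for sex.

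The change of a bin followed its GC content across the genome, and the members lay on that relation. Across the 30 members the log2 change had a Pearson r of -0.86 and a Spearman rho of -0.81 with GC content, and r over all bins was -0.83, values that describe bins measured in the same 6 libraries. Bins of 47 to 50% GC changed by a median of -0.42 and 93.3% of them fell, bins of 50 to 53% by -0.54 and 99.5% fell, while bins of 35 to 38% changed by 0.46. Against bins like them in GC content and gene count, which had a median change of -0.38, the members differed by a median of -0.001, with 15 below and 15 above their references. Against bins of like total contacts, which had a median change of -0.41, the median difference was 0.05, with 10 members below and 20 above. The members as a list thus stood where bins of their composition stood, and single members departed by -0.22 to 0.30.

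**Figure D2:**
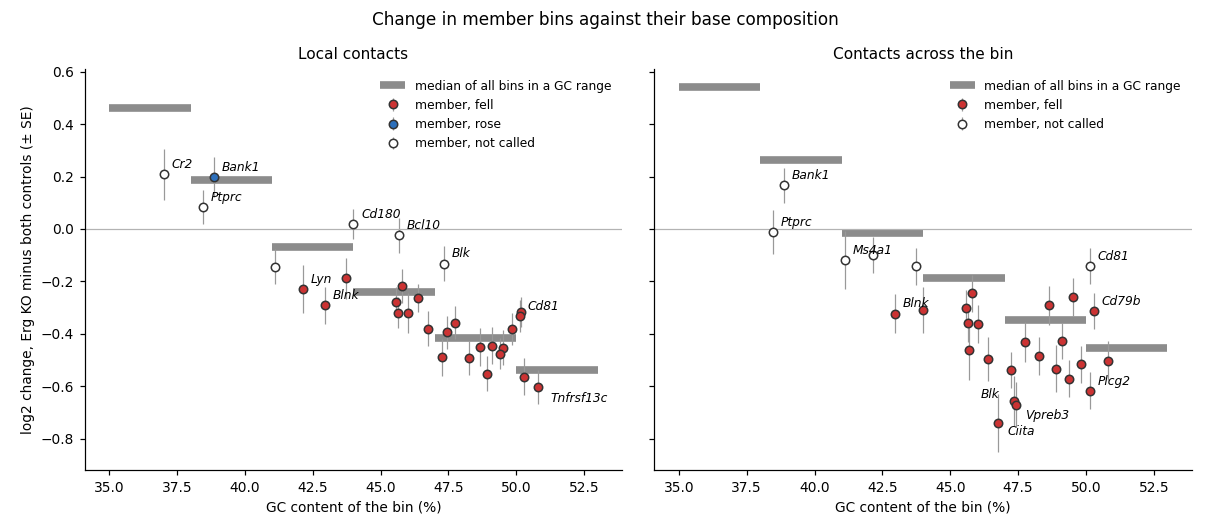
Log2 change of local contacts (left) and of contacts across the bin (right, the insulation value), Erg KO minus both controls, against the GC content of the bin in percent. Points are members with SE bars, filled where they passed, and grey bars are the median change of all bins in each GC range. Members follow the descending grey bars, with Bcl10 and Blk above them and Ptprc below them on the left and most members below them on the right. Signs that turn with offsets for GC content or with the GC trend removed are those given in the text.

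The members farthest from their references were not those with the lowest change. Bcl10 lay 0.30 above its references, which had a median of -0.33, and Blk 0.24 above. Cd81 lay 0.19 above, Cd180 0.17 above and Plcg2 0.15 above. On the other side Ptprc lay 0.22 below, its references having a median of 0.30, and Blnk and Lyn each lay 0.20 below. Cd79a, Cd79b and Vpreb3 differed from theirs by -0.06, -0.03 and 0.05. With offsets for GC content in the same edgeR fit, 9 members passed. Of these, 5 rose, namely Bcl10 by 0.24, Blk by 0.22, Cd180 by 0.18, Plcg2 by 0.17 and Cd81 by 0.16, and 4 fell, Cr2 by 0.24, Ptprc by 0.21, Blnk by 0.19 and Ms4a1 by 0.18 on the log2 scale. Over all bins 15.6% rose and 16.8% fell in that fit, so members passed at about the rate of all bins. On this scaling the receptor chains, Tnfrsf13c, Dok3 and Cd22 did not pass.

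The next measure was insulation, the log2 of the contacts that cross a bin between the 500 kb on either side, relative to the mean of its chromosome. A low value marks a place that few contacts cross, such as a domain border. Cr2 had no value, which left 29 members. Fewer contacts crossed the member bins in Erg KO. By limma with adjustment over 23201 bins, 23 of the 29 members fell, none rose and 6 did not pass, where over all bins 26.6% fell and 39.2% rose. The members' median change was -0.36 and that over all bins 0.08. In 25 members both Erg KO libraries lay below every control and in 1, Bank1, both lay above, against 29.2% and 39.5% of all bins. The members' median value was 0.47 in the controls and 0.20 in Erg KO, while that of all bins was -0.21 and -0.15.

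**Figure D3:**
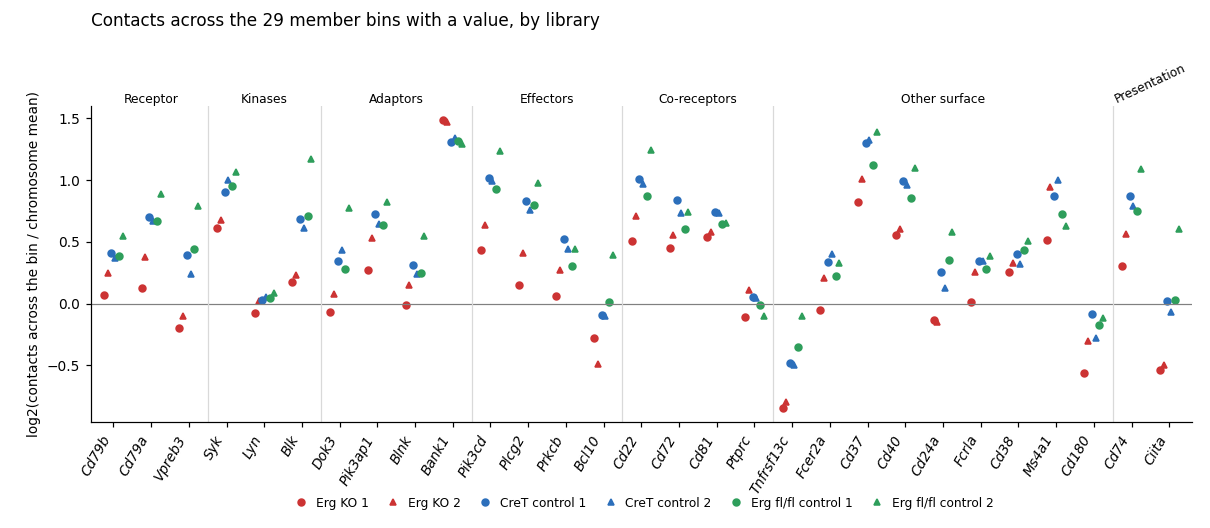
Contacts across the bin (log2 over the chromosome mean) for the 29 members with a value, with genes grouped by role along the x axis and 1 point for each library. Erg KO points lie under all control points in 25 genes, with wide gaps for Ciita, Vpreb3, Blk and Plcg2, and over them in Bank1. With the GC trend removed the changes of Bank1, Cd72, Cd81, Fcer2a and Cd79b turn in sign.

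Ciita had the lowest change of the members, -0.74 ± 0.111 (SE, adjusted p = 0.000974). Its values were -0.54 and -0.49 in Erg KO, 0.02 and -0.07 in the CreT control and 0.03 and 0.60 in the Erg fl/fl control. Both Erg KO values were close together and well under the controls, whose highest value was again Erg fl/fl control replicate 2. Vpreb3 changed by -0.67 ± 0.086 (adjusted p = 0.000649), with -0.20 and -0.10 in Erg KO, 0.39 and 0.24 in the CreT control and 0.44 and 0.79 in the Erg fl/fl control. For Blk, which did not pass on local contacts, the change was -0.66 ± 0.0946 (adjusted p = 0.000864), and every control value, from 0.62 to 1.17, lay above the Erg KO value of replicate 2, 0.23.

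Plcg2 changed by -0.62 ± 0.0712 (adjusted p = 0.000564), with 0.15 and 0.41 in Erg KO and 0.76 to 0.97 in the controls. Pik3cd changed by -0.57 ± 0.0705 (adjusted p = 0.000607), with 0.44 and 0.64 against 0.93 to 1.24. In Cd79a the change was -0.54 ± 0.0684 (adjusted p = 0.000631), with 0.12 and 0.38 in Erg KO, 0.70 and 0.67 in the CreT control and 0.67 and 0.89 in the Erg fl/fl control. All 3 genes thus had Erg KO values apart from the controls, with replicate 1 the lower. Dok3 changed by -0.53, Cd74 by -0.52, Cd24a by -0.50, Tnfrsf13c by -0.50 and Cd22 by -0.49. Tnfrsf13c had the lowest mean insulation of the members, -0.85 and -0.80 in Erg KO, -0.48 and -0.49 in the CreT control and -0.35 and -0.10 in the Erg fl/fl control, below the chromosome mean in every library.

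Bcl10 fell by 0.46 ± 0.116 (adjusted p = 0.00861) on the log2 scale, with -0.28 and -0.49 in Erg KO and -0.10 to 0.40 in the controls, although its local contacts did not pass, and leaving out Erg KO replicate 1 gave -0.83, leaving out either male library -0.24. Cd180, likewise without a call on local contacts, changed by -0.31 ± 0.087 (adjusted p = 0.0138), with -0.57 and -0.30 in Erg KO and -0.28 to -0.09 in the controls. The margin between the groups was small for Cd180, and the call was lost without Erg KO replicate 1, at -0.18, or CreT control replicate 1, at -0.26. Syk changed by -0.36, Pik3ap1 by -0.36, Cd37 and Cd40 by -0.43, Blnk by -0.32, Prkcb by -0.30 and Fcrla by -0.25. Cd79b changed by -0.31, Fcer2a by -0.29 and Cd72 by -0.26, and with the GC trend removed their changes were 0.10, 0.05 and 0.12. With a replicate block or without the sex term the insulation calls of Blnk, Prkcb, Fcrla, Fcer2a, Cd72, Cd79b and Cd180 were lost. With a window of 300 kb those of Cd72 and Cd79b were lost, and with 1 Mb those of Fcrla and Prkcb. Some calls also hung on single libraries. That of Fcrla was lost without Erg KO replicate 1, at -0.16, or either CreT control replicate, at -0.25. The call of Fcer2a was lost without Erg KO replicate 1, at -0.20, and that of Cd72 without CreT control replicate 1, at -0.23.

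The 6 members that did not pass were Lyn, Cd81, Cd38, Ms4a1, Ptprc and Bank1. Bank1 differed by 0.17 ± 0.0684 (adjusted p = 0.0601), with 1.49 and 1.47 in Erg KO and 1.29 to 1.35 in the controls, and by -0.17 with the GC trend removed. Its mean value was the highest of the members in both arms. Ptprc differed by -0.01 (adjusted p = 0.919), and its Erg KO values of -0.11 and 0.11 spanned those of the controls. Cd81 differed by -0.14 ± 0.0681 (adjusted p = 0.0989), and by 0.26 with the GC trend removed.

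Insulation also followed GC content, with r of -0.66 and rho of -0.51 across the 29 members and r of -0.75 over all bins. The reference bins of like GC content had a median change of -0.35, and the members lay a median of 0.13 below them, with 22 below and 7 above. Against bins of like total contacts, with a median of -0.37, the difference was -0.07, with 19 below and 10 above. Ciita and Ptprc lay 0.39 below their GC references, Blk 0.35, Blnk 0.29, Vpreb3 0.26 and Plcg2 0.24 below, while Cd81 lay 0.32 and Cd72 0.21 above. When the trend with GC content was taken out of every library, a setting chosen after seeing the data, 10 members passed. The 9 that fell were Ciita by 0.48, Ptprc by 0.39, Vpreb3 by 0.38, Blk by 0.37, Blnk by 0.28, Cd79a by 0.26, Cd24a by 0.26, Plcg2 by 0.21 and Pik3cd by 0.20, and Cd81 rose by 0.26. Over all bins 22.0% fell and 18.6% rose in that setting. With GC content allowed for, Blnk and Ptprc thus fell in both measures and Cd81 rose in both. Blk and Plcg2 rose in local contacts and fell in insulation, and Vpreb3, Ciita, Cd79a, Cd24a and Pik3cd passed in insulation alone. As local contacts with those offsets called members at about the rate of all bins, these overlaps only describe single bins. Between the controls no bin passed on insulation (0.00%), with 1 member at an unadjusted p under 0.05 in limma. That is 3.45% of the members, where 8.98% of all bins reached that level.

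The compartment score places a bin on the axis that separates open, gene-rich A chromatin, given a positive sign here, from closed B chromatin, in units of its SD within the chromosome and library. The positive side was set as the one richer in gene starts, a feature the members share. All 30 members had a positive mean score in the controls and in Erg KO, where 48.1% of all bins were positive in the controls. Their medians were 1.30 and 1.27. By limma none of the 30 passed, with 5 at an unadjusted p under 0.05, namely Blnk, Ptprc, Prkcb, Cd24a and Bcl10, and no other tool was run. That is 16.7% of the members, where 28.4% of all bins reached that level. Over all bins 2.00% fell and 2.37% rose. The members' median change was -0.02, from -0.42 to 0.15. Between the controls no bin passed (0.00%), with 4 members at an unadjusted p under 0.05. That is 13.3% of the members, where 18.4% of all bins reached that level.

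**Figure D4:**
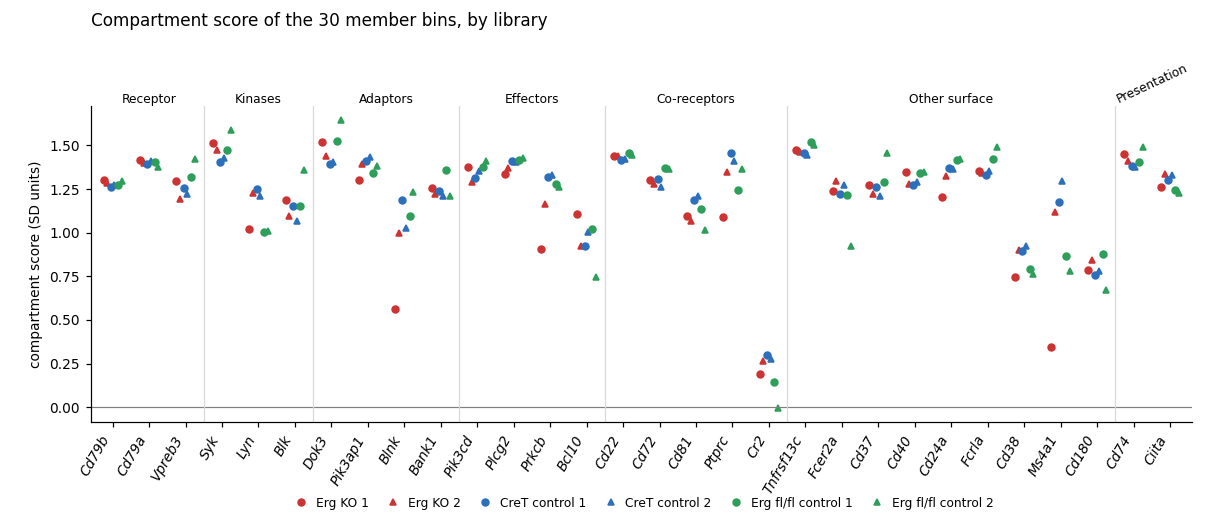
Compartment score, in SD units with positive values for the A side, of the bins of the 30 genes grouped by role along the x axis, with 1 point for each library. Cr2 lies closest to 0, and the Erg KO replicates of Blnk and Ms4a1 lie far apart.

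Blnk had the lowest difference, -0.42 ± 0.0836 (adjusted p = 0.0621), with scores of 0.56 and 1.00 in Erg KO, 1.19 and 1.03 in the CreT control and 1.09 and 1.23 in the Erg fl/fl control. Its Erg KO libraries lay below the controls, but replicate 2 by little. Ms4a1 differed by -0.38 ± 0.185 (adjusted p = 0.251), with 0.35 and 1.12 in Erg KO and 0.78 to 1.30 in the controls. The gap between its Erg KO replicates was larger than the difference between groups. Prkcb differed by -0.29 ± 0.0651 (adjusted p = 0.0758), with 0.91 and 1.17 in Erg KO and 1.26 to 1.33 in the controls. Cr2 had the lowest scores of the members, from 0.15 to 0.30 but for Erg fl/fl control replicate 2, which was at -0.00.

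The distances at which the members' contacts lay were set beside those of all bins. Each share here is of a bin's contacts at 200 kb or more and with other chromosomes, leaving out those under 200 kb. The library shares given earlier include pairs under 200 kb. At 200 to 500 kb the members had a median of 8.56% for Erg KO, 11.1% for the CreT control and 13.3% for the Erg fl/fl control. The medians over all bins were 6.72%, 7.96% and 9.18%. At 0.5 to 1 Mb the members had 5.15%, 7.08% and 9.89%, and all bins 5.01%, 6.24% and 7.83%. At 1 to 2 Mb the members had 3.25%, 3.84% and 5.72%, below the 4.68%, 5.97% and 7.72% of all bins. In each group member bins had larger shares than the median bin at 200 kb to 1 Mb. At 1 to 2 Mb their shares were smaller. Contacts with other chromosomes took 48.1%, 40.2% and 34.7% at the members and 39.0%, 30.6% and 27.7% over all bins. The share was highest in Erg KO for both, and its part in the loss of local contacts was not tested.

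Single bin pairs were tested to see with which neighbours the contacts changed. Of 431418 pairs with enough contacts above the background of ligation between chromosomes, 1097 had a member at 1 end. In edgeR with a term for sex, 203 of these fell and 3 rose, with a median change of -0.31, where over all pairs 6.46% fell and 6.39% rose. The pairs of 1 member share a bin and are not independent. No reference pairs of like GC content were drawn, so whether member pairs fell beyond pairs like them was not tested. For the settings that follow, the shares of all pairs that passed are not reported here. No member pair passed when either Erg KO or either Erg fl/fl control library was left out, 15 passed with offsets for the coverage of both bins, and 8 passed in DESeq2. The 3 that rose belonged to Cr2, Dok3 and Cd180. Between the controls no pair of a member passed in edgeR, with 82 of 1097 at an unadjusted p under 0.05. Of all 431418 pairs 27886 reached that level, and 0.000232%, 1 pair, passed.

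The pairs that fell lay mostly within 1 Mb. Up to 200 kb 42 of 89 member pairs fell, at 200 to 500 kb 78 of 172, at 0.5 to 1 Mb 51 of 267, at 1 to 2 Mb 21 of 297 and beyond 2 Mb 6 of 242, and of the 30 pairs of a bin with itself 5 fell. Over all pairs the counts at those distances were 3821 of 35219, 8168 of 70043, 8674 of 107380, 5033 of 129388 and 1149 of 65626, and 1026 of 23650 for a bin with itself. Cd79b and Tnfrsf13c had 14 pairs each that fell, of 34 and 48. Cd79a, Cd40, Plcg2 and Dok3 had 12, of 39, 44, 55 and 32, and Cd22 and Vpreb3 had 11, of 41 and 37. None of the 32 pairs of Bank1 and none of the 25 of Cr2 fell.

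**Figure D5:**
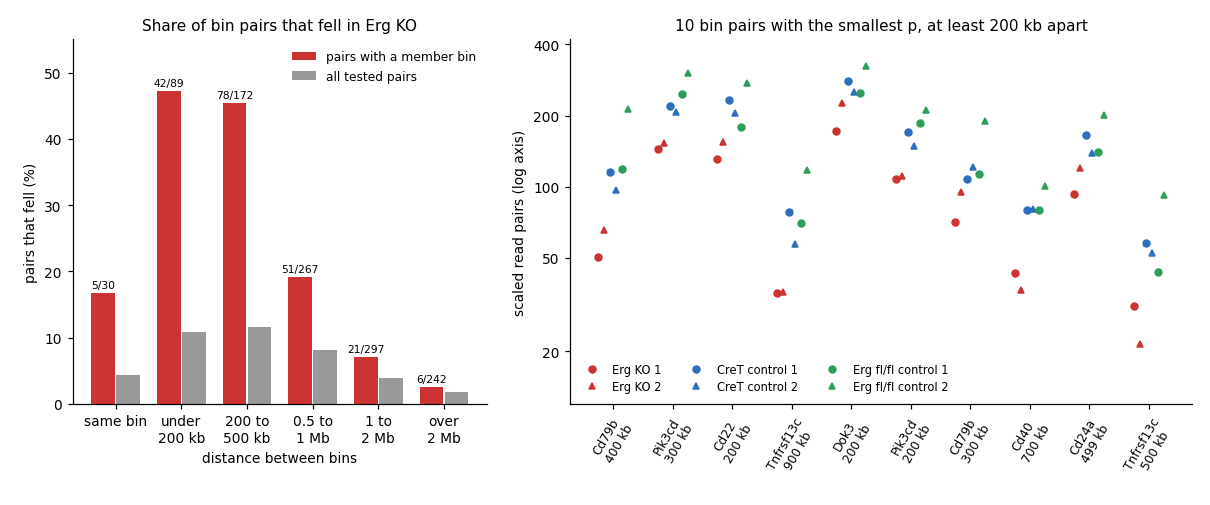
Left, bars give the percent of tested bin pairs that fell in Erg KO by the distance between the bins, for pairs with a member bin (counts above the bars) and for all tested pairs. Right, points give the scaled read pairs of each library, on a log axis, for the 10 member pairs at least 200 kb apart with the smallest p. The share that fell is highest under 200 kb, 42 of 89, and at 200 to 500 kb, 78 of 172. In each of the 10 pairs both Erg KO points lie under the 4 control points, a separation that follows from the choice by p.

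From the member pairs at least 200 kb apart with a mean of at least 20 scaled contacts, the 10 with the smallest p were taken. All 10 fell, and in each both Erg KO libraries lay below all 4 controls. They were picked by the p of this comparison, so such separation follows from the choice. The first joined the bin of Cd79b (chromosome 11, 106299592 to 106399840, mm10) to that of Ace, Ace3 and Cyb561 (105899687 to 105999975), 400 kb away. It held 50.3 and 65.5 scaled contacts in Erg KO, 115 and 96.7 in the CreT control and 119 and 214 in the Erg fl/fl control, a change of -1.37 ± 0.157 (SE, adjusted p = 2.74e-12). Ace encodes the angiotensin-converting enzyme. A second pair of Cd79b, 300 kb long, reached Dcaf7, Kcnh6, Map3k3 and Taco1, with 70.6 and 94.5 in Erg KO and 107 to 189 in the controls, a change of -0.82 ± 0.143 (adjusted p = 4.99e-06). Both pairs of Cd79b ran to the same side of the gene.

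Tnfrsf13c had 2 of the 10. Its pair with the bin of Cyb5r3, Poldip3 and Rrp7a, 900 kb away, held 35.3 and 35.6 in Erg KO, 78.1 and 57.1 in the CreT control and 69.7 and 117 in the Erg fl/fl control, a change of -1.28 ± 0.205 (adjusted p = 7.31e-07). Its pair with the bin of Rangap1 and Zc3h7b, 500 kb away, held 31.1 and 21.4 in Erg KO and 43.4 to 91.9 in the controls, a change of -1.32 ± 0.237 (adjusted p = 1.06e-05). These counts are low, and Erg fl/fl control replicate 2 was the highest library in both pairs. Pik3cd also had 2, with Gpr157 and H6pd at 300 kb, where Erg KO held 145 and 152 and the controls 207 to 302, and with Clstn1 and Ctnnbip1 at 200 kb, where Erg KO held 107 and 111 and the controls 148 to 211. Their changes were -0.75 ± 0.105 (adjusted p = 1.26e-08) and -0.73 ± 0.122 (adjusted p = 1.86e-06).

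Cd22 had fewer contacts with the bin of Fxyd1, Fxyd3, Fxyd5, Fxyd7 and Lgi4, 200 kb away, with 131 and 155 in Erg KO and 179 to 276 in the controls, a change of -0.75 ± 0.11 (adjusted p = 5.04e-08). The Fxyd genes encode regulators of the sodium pump. Dok3 had fewer with the bin of Lman2, Mxd3, Prelid1, Rab24, Rgs14 and Slc34a1, 200 kb away, with 172 and 226 in Erg KO and 250 to 325 in the controls, a change of -0.58 ± 0.0957 (adjusted p = 1.57e-06). The remaining pairs, of Cd40 at 700 kb and of Cd24a at 499 kb, ended in bins where no protein-coding gene starts and changed by -1.11 ± 0.194 (adjusted p = 5.55e-06) and -0.71 ± 0.127 (adjusted p = 9.96e-06). With offsets for the coverage of both bins 3 of the 10 passed, the first pair of Cd79b at -0.81 (adjusted p = 0.00058) and those of Tnfrsf13c at -0.84 (adjusted p = 0.0145) and -0.86 (adjusted p = 0.0406).

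One tested pair joined members to each other, Blnk to Pik3ap1 at 400 kb. It held 29.4 and 36.9 in Erg KO, 37.1 and 29.9 in the CreT control and 41.3 and 54.7 in the Erg fl/fl control, a difference of -0.37 ± 0.24 (adjusted p = 0.335). The Erg KO values overlapped those of the CreT control.

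Further genes of the same pathway were read from a list of 54 names, of which 52 were found, in 50 bins that hold no member. Fcgr2b shared the bin of Fcrla and was not counted, and Igll1 and Vpreb1 shared a bin. On local contacts 41 of the 50 bins fell and 2 rose, with a median change of -0.35, beside the 33.0% and 33.9% of all bins given above. The bins that rose held Cblb, a ubiquitin ligase that limits signalling, at 0.24 and Rasgrp3, an activator of Ras, at 0.19. Among receptor partners, Cd5 changed by -0.39, Vpreb2 by -0.35 and the bin of Igll1 and Vpreb1, the surrogate light chains, by -0.19. Negative regulators fell by 0.66 for Csk, 0.56 for Cbl, 0.47 for Dok1, 0.40 for Ptpn6 and 0.23 for Inpp5d on the log2 scale. Adaptors changed by -0.73 for Grb2, -0.56 for Shc1, -0.53 for Lat2, -0.41 for Sh3bp2, -0.26 for Hcls1 and -0.22 for Gab1. Every gene named here passed, and all but Cblb and Rasgrp3 fell. No reference bins of like GC content were drawn for this list, and its changes with offsets for GC content are not reported here. Whether the bins of this list changed beyond bins like them was not tested.

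The guanine nucleotide exchange factors and their GTPases changed by -0.42 for Vav2, -0.38 for Vav1, -0.17 for Vav3, -0.45 for Rac2 and -0.31 for Rac1. In the MAP kinase branch the changes were -0.43 for Mapk3 and -0.40 for Hras. In the lipid kinase branch they were -0.71 for Akt1, -0.27 for Pik3ca and -0.23 for Pik3cg. All of these are bins that passed. In the calcium and NFAT branch the bins that passed changed by -0.63 for Nfatc2, -0.57 for Orai1, -0.48 for Nfatc1, -0.38 for Ppp3cb, -0.34 for Stim1 and -0.18 for Itpr2. In the NF-kB branch those that passed changed by -0.58 for Rela, -0.37 for Ikbkb, -0.34 for Rel, -0.22 for Chuk and -0.17 for Nfkb1. Bins of the list that did not pass included those of Map3k7 at -0.15, Itpr1 at -0.10, Fyn at -0.07, Sos1 at -0.03, Malt1 at -0.02 and Pik3r1 at -0.01.

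On insulation 35 of these 50 bins fell and 1, that of Cblb, rose by 0.31, with a median of -0.38, where over all bins 26.6% fell and 39.2% rose. Akt1 had the lowest change, -1.14. It was followed by Ppp3cb and Nfatc1 at -0.73, Lat2 and Itpr2 at -0.71, Stim1 at -0.68 and the bin of Igll1 and Vpreb1 at -0.65. None of these values was set against bins of like GC content.

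Genes of stromal cells were read in the same way, since the cells were grown on OP9. Of 18 such genes 5 rose and 8 fell on local contacts, with a median of -0.09, and 7 rose and 6 fell on insulation, with a median of -0.02. Over all bins 33.9% rose and 33.0% fell on local contacts, and 39.2% rose and 26.6% fell on insulation. On the compartment score, where 2.37% of all bins rose, Prrx1, Pdgfra and Col1a2 rose, by 0.38, 0.32 and 0.32 (limma, adjusted p = 0.0381, 0.0456 and 0.0396). These calls were made against both controls together. Against the CreT control or the Erg fl/fl control alone no bin of the 23651 passed in limma. The smallest adjusted p was 0.0537 and 0.0608. The part of stromal DNA in the members' values was not tested.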

How the data were processed

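In situ Hi-C libraries of 3 genotypes in biological duplicate were analysed. The deposited files hold raw counts of read pairs per pair of bins of about 100 kb, which the authors made by aligning reads to mm10 with diffHic and removing artefactual pairs. Depth ran from 29014581 to 68085468 pairs. The lowest, Erg fl/fl control replicate 2, holds fewer pairs than the methods state for any library. The labels do not say from how many animals each culture came.

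Genes were placed by their GENCODE M21 start. Autosomal bins with 0.3 to 3 times the median contacts were kept, and sex chromosomes were left out. Local contacts, TMM-scaled, and bin pairs with at least 10 summed counts and 5 times the ligation background, with loess offsets rewritten after diffHic, were tested in edgeR 4.0.16 by quasi-likelihood F tests with group and sex as terms. Insulation and compartment scores were tested in limma 3.58.1 under R 4.3.3. All p-values were Benjamini-Hochberg adjusted over all features. DESeq2 1.42.0 was an alternative, with other scalings, filters, windows, left-out libraries and a replicate block. Measures came from Python 3.11.15 (scipy 1.17.1, numpy 2.4.6, pandas 2.3.3). The scripts were tested on simulated data.

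All 30 members are named, with the 10 member pairs of smallest p among those at least 200 kb apart with a mean of at least 20 scaled contacts. Members and gene lists were chosen with earlier results of these data known. Values of some further pathway genes are not reported here.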

Additional observations from a re-analysis of the deposited data

How the results depend on the processing

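With 2 libraries per group the fit left 2 residual degrees of freedom, and 1 with a library left out. The sex term was kept in those fits. With a male library left out it took up the other male, so both such fits rest on the female libraries. With the female library of Erg KO or of the Erg fl/fl control left out, the sex term came from the other of these groups alone. In the main fits 33.9% of all bins rose and 33.0% fell on local contacts, and 39.2% and 26.6% on insulation. On the compartment score 2.37% rose and 2.00% fell. With GC content allowed for, 15.6% rose and 16.8% fell on local contacts, and 18.6% and 22.0% on insulation. Shares of all bins under the other settings are not reported here, so the counts below do not set members apart from all bins. Local contacts called 24 members. This was 9 with offsets for GC content, 21 to 26 with a library left out, and 19 to 25 under the other settings. Insulation called 23 members, 10 with the GC trend removed (chosen after seeing the data), 20 to 26 with a library left out, and 16 both without the sex term and with a replicate block. Compartment scores called none, 3 without smoothing (Prkcb, Blnk and Pik3ap1) and 0 to 7 with a library left out.

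Bin pairs depended most on the processing. The 206 called member pairs became 15 with bin coverage offsets, 8 in DESeq2, 106 without the sex term, 113 with a replicate block and 146 with TMM scaling. With a library left out they numbered 0 to 179, and 0 passed when any library of Erg KO or of the Erg fl/fl control was the one left out. The cause was not tested. In the main fit 18.8% of member pairs and 12.8% of all pairs passed. Shares of all pairs under the other settings are not reported here. A loss of calls among member pairs therefore cannot be told from a loss among all pairs. Of the 10 named pairs 3 kept the call with bin coverage offsets and 4 in DESeq2.

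Replicate numbers did not pair the libraries across all groups. For local contacts the correlation of same-numbered deviations was -0.18 for Erg KO with the CreT control and -0.40 between the controls. For Erg KO with the Erg fl/fl control it was 0.53, and in both of these groups replicate 1 is female and replicate 2 male. The replicate block called 20 members on local contacts, 16 on insulation and 0 on compartment scores.

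Signs turned for single genes. On local contacts with offsets for GC content the changes were -0.21 for Ptprc, 0.0519 for Fcrla, -0.24 for Cr2, 0.0188 for Cd40, -0.0492 for Bank1, 0.24 for Bcl10, 0.00963 for Cd72, 0.16 for Cd81, 0.17 for Plcg2, 0.0404 for Cd24a, 0.22 for Blk and 0.0928 for Cd74. Bcl10 was 0.0278 with scaling by totals, 0.015 without the sex term and 0.0128 with the replicate block. With a library left out it ran from -0.0564 to 0.0235, Cd180 from -0.0166 to 0.0749 and Ms4a1 from -0.24 to 0.0107. On insulation Ptprc was 0.00683 without the sex term and 0.00683 with the replicate block. With the GC trend removed Bank1 was -0.17, Cd72 0.12, Cd81 0.26, Fcer2a 0.0517 and Cd79b 0.0983. With a library left out insulation ran from -0.125 to 0.18 for Ptprc and from -0.317 to 0.21 for Ms4a1. Compartment scores of Cd180 were -0.0769 without smoothing and ran from -0.0413 to 0.23 with a library left out, and those of Ms4a1 from -0.705 to 0.16. In Ms4a1 each sign turned without Erg KO replicate 1. Among all members the sign of the compartment difference turned in up to 10 of 30, without smoothing.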
